A study of Mus musculus with 16 samples.

Results

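Gata1 and Gata3 encode relatives of GATA2, and the chromatin around both genes was followed here in mouse hematopoietic progenitors by ATAC-Seq, in which a transposase cuts open DNA. A peak belonged to a gene when it lay within 100 kb of the 5′ end of the gene on the mm10 genome build (GENCODE M21 annotation). Overlapping peaks of all libraries were merged into regions. The Gata1 window held 16 regions and the Gata3 window held 12, so 28 of 90376 regions were examined. For Gata1 (ENSMUSG00000031162.14) the annotated gene is chrX:7959260-7978071 and for Gata3 (ENSMUSG00000015619.10) it is chr2:9857078-9890034, both on the minus strand. In both genes the outermost annotated 5′ end lies upstream of the start of the principal transcript, by 10.2 kb for Gata1 and by 11.4 kb for Gata3. Distances below are from the start of the principal transcript.

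The 16 libraries came from mouse fetal liver cells held at a progenitor stage by HoxB8 under estrogen control, in 4 groups of 4. The genotypes were hi-77+/+, in which the distal -77 enhancer that drives Gata2 is present, and hi-77-/-, in which it is deleted. hi-77+/+ cells were infected with an empty retrovirus (hi-77+/+ empty). hi-77-/- cells received the empty retrovirus (hi-77-/- empty), a GATA2 retrovirus (hi-77-/- GATA2) or a retrovirus for 9aa-Ins (hi-77-/- 9aa-Ins), a GATA2 variant with 9 amino acids inserted between its zinc fingers. All groups were cultured with β-estradiol, kept with virus for 3 days and sorted for GFP before 50000 cells were tagmented. Since no label distinguishes lines of the same genotype, the deletion and the cell line cannot be told apart. The study calls the libraries of a group biological replicates, and the labels do not say which came from separate infections, so P values measure the spread between these libraries. Accessibility was measured in bulk, so a larger share of cells with an open region and a more open region in each cell cannot be told apart.

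GATA factors bind WGATAR sequences through zinc fingers, and their genes are linked to each other. GATA2 acts in stem and progenitor cells and can activate Gata1, whose product replaces GATA2 on chromatin as erythroid cells mature. GATA1 also acts in megakaryocytic, mast and eosinophil cells. Transcription of Gata1 in blood cells depends on a promoter with a palindromic pair of GATA sites and on an enhancer, known as HS1 or G1HE, a few kilobases upstream. GATA3 directs T cells, innate lymphoid cells and several nonhematopoietic tissues.

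Each deposited list held 50195 to 112267 peaks, and the 49000 most significant peaks on chromosomes 1 to 19 and X were used per library, so that all lists had equal length. A region was scored by the rank of its best peak in a library. The most significant peak scored 100, and a region without a peak scored 0. A region open in all 4 libraries of a group and in 0 of 4 of its reference group was called opened, and one that lost all 4 was called closed. Scores were compared by two-sided exact permutation tests, in which 4 against 4 libraries allow no P value below 0.0286, and P values were adjusted over all regions. Higher or lower without overlap means that every library of a group lay above or below every library of the other. No score in either window passed 0.05 after adjustment, and 15 comparisons of a region had an unadjusted P value of 0.0286, the smallest possible. The last peak used had a -log10 P value of 5.35 to 7.43 in GATA2 libraries and of 8.75 to 11.7 in 9aa-Ins libraries, so equal lists reached weaker peaks with GATA2. The X chromosome held 1.62% to 1.71% of the peaks used in hi-77+/+ empty libraries and 1.84% to 2.01% in the hi-77-/- libraries. The part of these differences in the results was not tested.

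The windows differed in character. Around Gata1, 6 regions had a peak in 16 of 16 libraries, and all 6 lay at or near the promoters of its neighbors Pim2, Slc35a2, Pqbp1, Timm17b, Hdac6 and Suv39h1. None of the 5 regions within the Gata1 gene itself was open in any hi-77+/+ empty library. Around Gata3, 3 regions had a peak in every library, and these included the Gata3 promoter and the alternative upstream start.

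**Figure D1:**
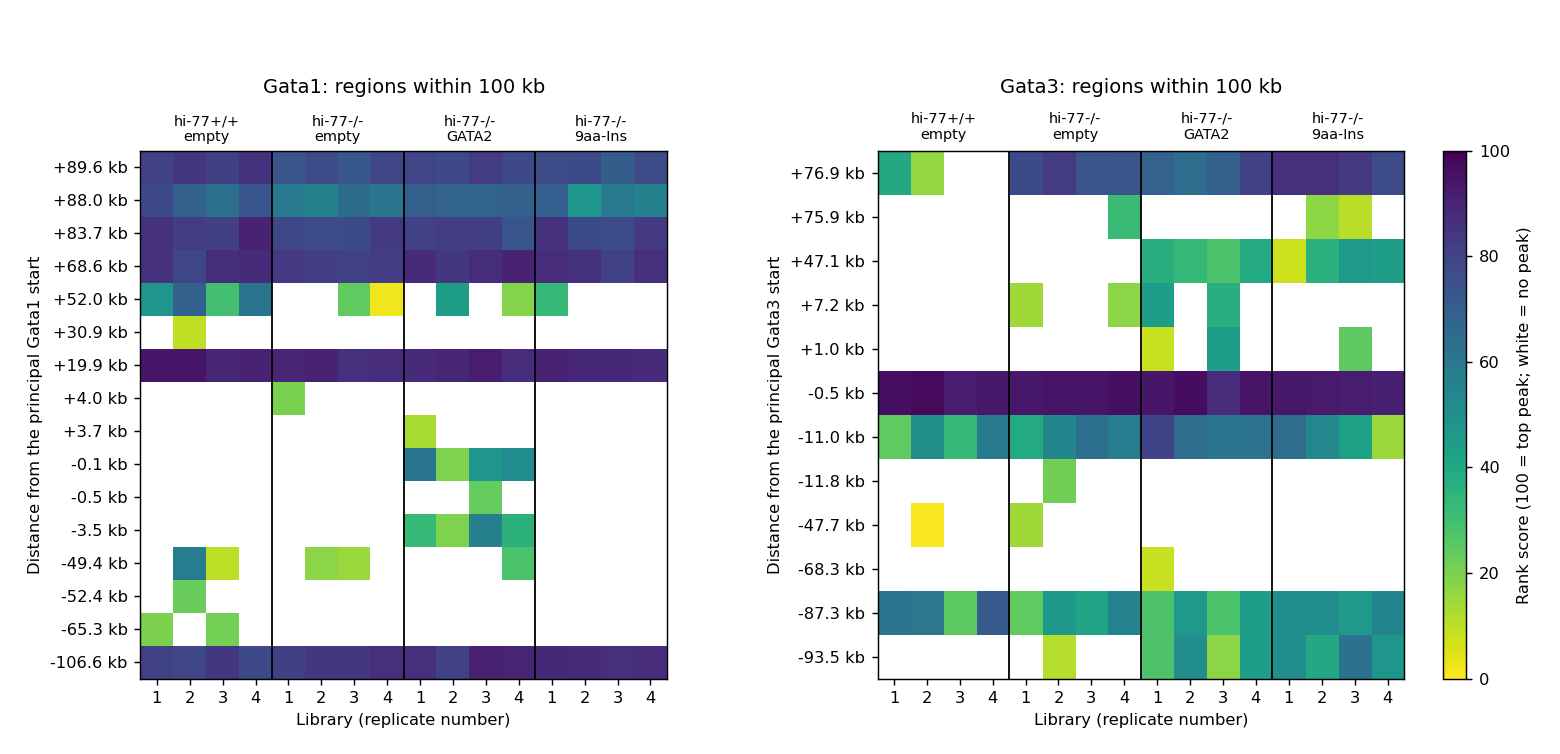
Rank scores of all regions in the Gata1 window (left) and the Gata3 window (right), with 1 row per region, labelled by its distance from the start of the principal transcript in kb (positive is downstream), and 1 column per library. Color gives the score from 0 to 100 and white marks a region with no peak. The rows of Gata1 at the promoter and 3.53 kb upstream are filled only in the 4 GATA2 libraries, and the Gata3 promoter row is dark in all 16.

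The following Gata1 sequences show the 2 regions that opened with GATA2, described below, and another between them. Capitals mark GATA motifs (GATA preceded by A or T and followed by A or G, on either strand, each match counted), and all sequences were read from RefSeq (GRCm38.p6) on the minus strand, 5′ to 3′. The promoter region is shown up to the start of the principal transcript (chrX:7967911-7968174). The region 0.509 kb upstream of that start (chrX:7968371-7968468) was not called opened, with a peak in 1 GATA2 library, and is shown because it holds a pair of GATA motifs facing each other. The region 3.53 kb upstream (chrX:7971292-7971591) lies in an intron of the longer transcript.
Gata1 promoter: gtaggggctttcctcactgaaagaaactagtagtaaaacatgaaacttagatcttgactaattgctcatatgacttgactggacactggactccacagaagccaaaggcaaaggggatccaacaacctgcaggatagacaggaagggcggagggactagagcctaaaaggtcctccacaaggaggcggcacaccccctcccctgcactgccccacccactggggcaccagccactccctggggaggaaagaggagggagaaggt
Gata1 0.509 kb upstream: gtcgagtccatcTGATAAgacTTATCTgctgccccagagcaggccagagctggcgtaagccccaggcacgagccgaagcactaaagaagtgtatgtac
Gata1 3.53 kb upstream: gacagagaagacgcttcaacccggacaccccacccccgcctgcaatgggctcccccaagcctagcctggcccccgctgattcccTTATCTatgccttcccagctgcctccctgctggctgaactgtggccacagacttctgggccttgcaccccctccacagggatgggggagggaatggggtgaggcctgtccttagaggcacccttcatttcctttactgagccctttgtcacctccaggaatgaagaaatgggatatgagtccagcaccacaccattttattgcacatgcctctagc

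The promoter region held 0 GATA motifs, the region 0.509 kb upstream held 2 and the region 3.53 kb upstream held 1. In the latter the motif was paired with CANNTG, an E box, at a gap of 6 to 14 bases, the arrangement bound by GATA factors together with TAL1. In windows of 300 bases, 36.4% of all regions held a GATA motif, 10.6% held 2 or more and 2.76% held the E box pair. Of the 1558 regions opened by GATA2 across the genome, 84.5% held a GATA motif and 10.3% held the E box pair. A match describes the letters and does not show binding.

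GATA2 expression opened the Gata1 promoter and the upstream region. At the promoter (chrX:7967782-7968174, overlapping an annotated Gata1 UTR) the 4 GATA2 libraries scored 61.0, 19.3, 47.4 and 51.3, and the 4 hi-77-/- empty libraries had no peak. All GATA2 libraries lay above all empty libraries, with replicate 2 the lowest. The mean difference was 44.7 (P = 0.0286, adjusted P = 0.173, exact permutation test, GATA2 SD 17.9, n = 4 per group). At the region 3.53 kb upstream the GATA2 libraries scored 32.9, 19.3, 56.5 and 35.8, again against no peak in hi-77-/- empty libraries. Here too the groups did not overlap, and the mean difference was 36.1 (P = 0.0286, adjusted P = 0.173, exact permutation test). When a peak had to cover 50% of its region, the promoter kept its call and the upstream region lost it (22.0, P = 0.143, exact permutation test), and in lists of 50% of the length neither region was called. Of the 13 Gata1 regions with a peak in either group, these 2 were opened, beside 2.15% of all regions, and 0 were closed, beside 2.82%. In score, 4 of the 13 regions were higher without overlap, beside 6.96% of all regions, and 0 were lower, beside 9.52%.

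Besides the opened regions, 2 regions at neighboring genes scored higher with GATA2. At Pqbp1 and Timm17b, 68.6 kb downstream, the GATA2 libraries scored 87.7, 83.8, 87.1 and 90.2 and the hi-77-/- empty libraries scored 83.6, 81.9, 80.3 and 82.0. These groups were separated by a narrow gap, with a mean difference of 5.27. In an exon of Pim2, which encodes a serine/threonine kinase, the GATA2 libraries scored 67.8 to 69.8 and the hi-77-/- empty libraries 56.0 to 64.8, a mean difference of 8.79. Both regions were open in 16 of 16 libraries, and neither difference was firm. The groups overlapped at both in the full lists (P = 0.0571 at Pqbp1 and 0.171 at the Pim2 exon, exact permutation tests), and with 50% cover both directions turned (-16.7 and -14.6). For the Pim2 exon the groups also overlapped when tied peaks shared their average rank (P = 0.0571, exact permutation test).

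9aa-Ins opened neither Gata1 region. At the promoter and at the region 3.53 kb upstream all 4 9aa-Ins libraries scored 0, as did the 4 hi-77-/- empty libraries. Compared with GATA2, both regions were closed with 9aa-Ins, with mean differences of -44.7 at the promoter and -36.1 at the upstream region (each P = 0.0286, adjusted P = 0.144, exact permutation test). Of the 12 Gata1 regions with a peak in a GATA2 or 9aa-Ins library, 2 were closed with 9aa-Ins, beside 1.82% of all regions, and 0 were opened, beside 3.67%. In score, 3 of the 12 were lower, beside 6.86%, and 0 were higher, beside 13.0%. The remaining region was the Pim2 promoter, at 76.9, 77.7, 70.5 and 76.8 with 9aa-Ins and 77.9 to 82.5 with GATA2. Its mean difference was -3.95, and the direction turned in the full lists (2.73).

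Against hi-77-/- empty cells, 9aa-Ins left the Gata1 window without a call. Of the 9 regions with a peak in either group, 0 were opened, beside 1.86% of all regions, 0 were closed, beside 0.213%, 0 scored higher without overlap, beside 7.48%, and 0 lower, beside 3.54%. The same empty libraries served as reference for GATA2 and for 9aa-Ins.

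**Figure D2:**
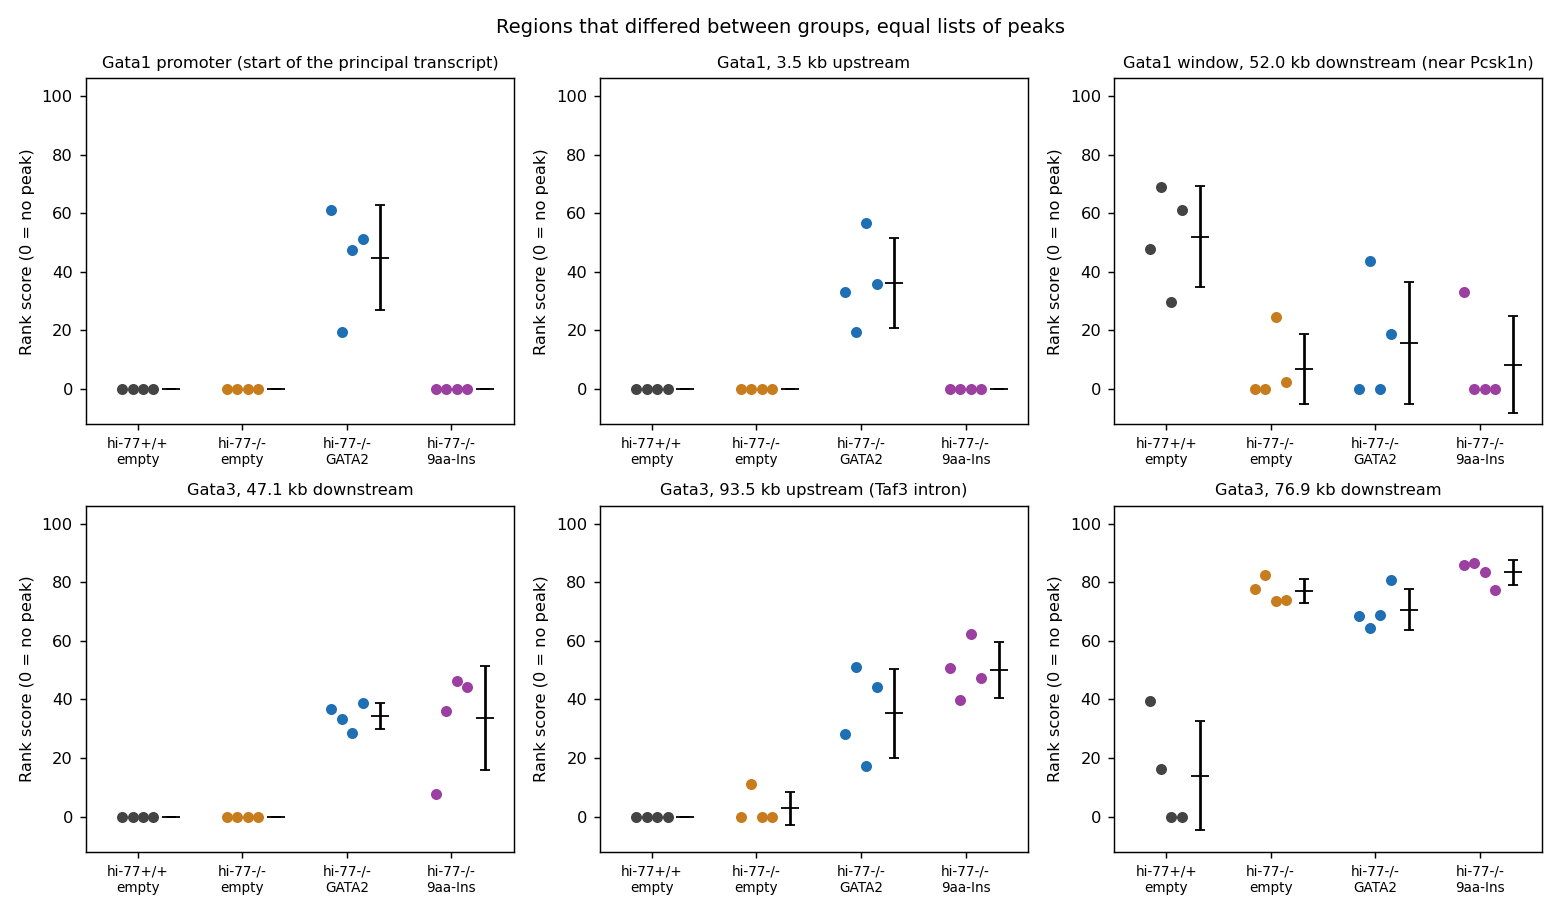
Rank scores at 6 regions of the windows, by group, with 1 point per library, and a black bar with whiskers for the mean and SD of 4 libraries. The vertical axis runs from 0 (no peak) to 100 (top peak). The Gata1 promoter and the region 3.53 kb upstream have points above 0 with GATA2 alone, the Gata3 regions 47.1 kb downstream and 93.5 kb upstream score higher with GATA2 and 9aa-Ins, and the Gata3 region 76.9 kb downstream separates hi-77+/+ from hi-77-/- libraries.

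In lists of equal length the -77 deletion gave no opened or closed call around Gata1. Of 12 regions with a peak in either empty group, 0 were opened (4.29% of all regions were) and 0 were closed (2.51% were). By score 0 were higher without overlap, beside 13.2% of all regions, and 2 were lower, beside 11.6%. An intergenic region 52.0 kb downstream, near Pcsk1n, which encodes a proprotein convertase inhibitor, scored 47.7, 69.1, 29.7 and 61.1 in hi-77+/+ empty libraries. In hi-77-/- empty libraries it had no peak in replicates 1 and 2 and scored 24.6 and 2.27 in replicates 3 and 4. The groups did not overlap (difference -45.2, P = 0.0286, adjusted P = 0.115, exact permutation test), although they did when tied peaks shared their average rank (P = 0.0571, exact permutation test). GATA2 libraries scored 0, 43.8, 0 and 18.6 there, and 9aa-Ins libraries 33.1, 0, 0 and 0. Neither separated from hi-77-/- empty libraries. The Pim2 promoter also scored lower after the deletion, at 72.9 to 79.1 against 80.8 to 85.4.

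In the full peak lists, hi-77+/+ empty cells had a weak peak at the Gata1 promoter. It ranked 76361, 85587, 69185 and 81159 in the 4 libraries, with scores of 13.1, 23.4, 8.99 and 2.24. All 4 ranks lay past the 49000 peaks used above. No hi-77-/- empty library had it, but those lists ended after 63924 to 74292 peaks, so 3 of the 4 ranks lay beyond the end of the longest. In significance, however, the hi-77+/+ peaks had -log10 P values of 5.66 to 6.10, and the hi-77-/- empty lists held peaks down to 3.87 to 4.33. GATA2 libraries ranked the promoter at 19129, 39557, 25771 and 23878, far above the hi-77+/+ libraries. Among 9aa-Ins libraries replicate 2 ranked it at 60844 and replicate 1 at 105148, and replicates 3 and 4 had no peak. The -log10 P values were 8.86 in 9aa-Ins replicate 2 and 4.47 in replicate 1, and 9.65 to 17.3 in GATA2 libraries. The replicate 2 peak lay below the last peak used in that library (11.4) but above those of the GATA2 libraries (5.35 to 7.43). The 9aa-Ins lists were as long as 107594 peaks.

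Upstream of the promoter the full lists added little to the equal lists. The region 3.53 kb upstream had a peak in no hi-77+/+ empty or 9aa-Ins library, in 1 hi-77-/- empty library, at rank 72501, and in all 4 GATA2 libraries, at ranks 21330 to 39558. A region with the pair of GATA motifs had a peak in GATA2 replicates 2, 3 and 4, at ranks 75265, 37411 and 70931, and in no library of the other groups. Within the gene, a coding exon 3.95 kb downstream had weak peaks in all 4 hi-77-/- empty libraries, with scores of 42.0, 22.7, 11.7 and 15.5. There it had no peak in hi-77+/+ empty libraries and was found in 1 GATA2 and 3 9aa-Ins libraries. A coding exon of Hdac6, a cytoplasmic deacetylase gene 30.9 kb downstream, showed the reverse. It scored 40.0, 60.4, 32.5 and 38.7 in hi-77+/+ empty libraries and was absent from all 12 hi-77-/- libraries.

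Calls in the full lists differed accordingly. These lists held 30 Gata1 regions, and each count is over those with a peak in either group compared. Of 20 such regions, the -77 deletion opened 1 (the coding exon), beside 1.71% of all regions, and closed 2 (the promoter and the Hdac6 exon), beside 3.03%. Of 19, GATA2 opened 1, the promoter, beside 1.32%, and closed 0, beside 2.53%. For 9aa-Ins against hi-77-/- empty, 0 of 21 were opened, beside 2.6%, and 0 closed, beside 0.013%. Against GATA2, 9aa-Ins had 1 closed region of 26, 3.53 kb upstream, beside 0.478%, and 0 opened, beside 4.88%. The promoter lost that call through its peaks in 9aa-Ins replicates 1 and 2.

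**Figure D3:**
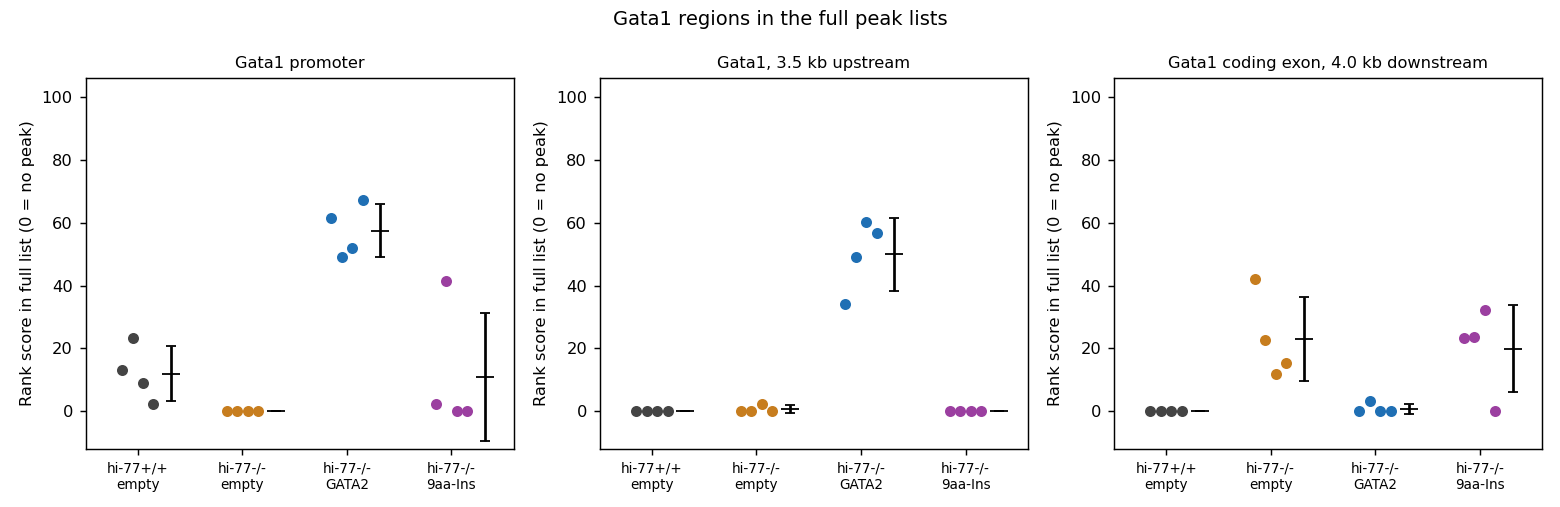
Rank scores of 3 Gata1 regions in the full peak lists, by group, with 1 point per library and a black bar with whiskers for the mean and SD of 4 libraries. The vertical axis is the rank score within the full list, where 0 means no peak. Promoter scores are 2.24 to 23.4 in hi-77+/+ empty and 49.1 to 67.1 in GATA2 libraries, and the coding exon has points above 0 in all hi-77-/- empty libraries.

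The rest of the Gata1 window was open in every library or in a few. Promoter regions of Slc35a2, a nucleotide sugar transporter gene, and of Hdac6 scored 74.0 to 89.9 and 86.2 to 94.4 across the 16 libraries. The promoter of Suv39h1, which encodes a histone H3 lysine methyltransferase, scored 77.8 to 90.7. An intron of Glod5 had a peak in 5 libraries, and another intergenic region, 65.3 kb upstream, in 2 hi-77+/+ empty libraries. Each of the remaining regions was present in 1 library.

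The Gata3 promoter was open in every group. Its region (chr2:9878052-9880067, 2016 bp) holds the start of the principal transcript. It scored 95.9, 97.3, 92.2 and 93.4 in hi-77+/+ empty and 93.5, 94.4, 94.5 and 95.8 in hi-77-/- empty libraries. GATA2 libraries scored 94.0, 96.7, 87.4 and 94.8, and 9aa-Ins libraries 93.6, 92.6, 91.8 and 91.3. The groups overlapped in all comparisons, and the region was among the most significant of each list. At the alternative upstream start, which Gata3 shares with the divergent transcript 9230102O04Rik, scores were lower and more variable. They were 24.2, 50.4, 33.2 and 59.1 in hi-77+/+ empty, 39.0, 54.2, 63.4 and 57.5 in hi-77-/- empty, 80.0, 64.4, 61.3 and 62.0 in GATA2 and 64.2, 53.4, 43.2 and 15.1 in 9aa-Ins libraries. In the 4 comparisons made the groups overlapped there, and the smallest P value was 0.0857, in the pairs of GATA2 with hi-77-/- empty and with 9aa-Ins (exact permutation test). GATA2 libraries lay above all hi-77+/+ empty libraries, a pair that was not tested.

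Sequences are shown for the distal Gata3 regions that gained peaks, because they scored higher with either protein. The region 47.1 kb downstream is intergenic, 25.6 kb past the 3′ end of the gene, and the central bases are given (chr2:9831322-9831621). The region 93.5 kb upstream (chr2:9971970-9972266) lies in an intron of Taf3, which encodes a subunit of the general transcription factor TFIID. Capitals, source and strand are as for Gata1.
Gata3 47.1 kb downstream: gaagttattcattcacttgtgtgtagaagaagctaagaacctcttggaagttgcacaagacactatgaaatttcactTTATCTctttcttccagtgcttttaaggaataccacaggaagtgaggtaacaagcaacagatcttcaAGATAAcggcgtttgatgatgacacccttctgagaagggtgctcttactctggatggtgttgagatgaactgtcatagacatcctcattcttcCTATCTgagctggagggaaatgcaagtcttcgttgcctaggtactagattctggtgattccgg
Gata3 93.5 kb upstream: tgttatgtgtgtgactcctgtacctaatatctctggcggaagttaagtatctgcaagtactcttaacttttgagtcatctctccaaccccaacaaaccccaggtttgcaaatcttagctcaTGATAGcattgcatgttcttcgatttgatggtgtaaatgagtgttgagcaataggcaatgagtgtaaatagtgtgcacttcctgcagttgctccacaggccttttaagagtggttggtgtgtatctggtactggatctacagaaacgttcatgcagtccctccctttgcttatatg

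The downstream region held 3 GATA motifs and the upstream region 1. Of the 1256 regions opened by 9aa-Ins across the genome 38.9% held a GATA motif, near the 36.4% of all regions. For both distal regions the nearest annotated start is that of another gene, and no gene was assigned to them.

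The region 47.1 kb downstream of Gata3 opened with GATA2 and with 9aa-Ins. It had no peak in any hi-77+/+ empty or hi-77-/- empty library. GATA2 libraries scored 36.8, 33.2, 28.4 and 38.7, and 9aa-Ins libraries 7.79, 36.1, 46.4 and 44.3. Every library with either protein had the peak, and 9aa-Ins replicate 1 was far lower than the rest. Against hi-77-/- empty the mean difference was 34.3 for GATA2 (P = 0.0286, adjusted P = 0.173, exact permutation test) and 33.7 for 9aa-Ins (P = 0.0286, adjusted P = 0.259, exact permutation test). With 50% cover the GATA2 call was lost (24.6, P = 0.143, exact permutation test) and that of 9aa-Ins held, and in lists of 50% of the length both were lost. The proteins did not differ from each other by more than the spread between libraries (-0.632, P = 0.971, exact permutation test). In the full lists the same 8 libraries had the peak, at scores of 34.8 to 58.6 with GATA2 and 58.0 to 69.9 with 9aa-Ins.

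Upstream, the Taf3 intron region also scored higher with either protein. hi-77+/+ empty libraries had no peak, and among hi-77-/- empty libraries replicate 2 scored 11.3 and the others 0. GATA2 libraries scored 28.1, 51.2, 17.4 and 44.3, and 9aa-Ins libraries 50.9, 39.7, 62.3 and 47.3. Both groups lay above all hi-77-/- empty libraries, by 32.4 for GATA2 and 47.2 for 9aa-Ins (each P = 0.0286, adjusted P = 0.173 and 0.259, exact permutation test). 9aa-Ins and GATA2 overlapped (14.8, P = 0.2, exact permutation test). The GATA2 difference is less firm. In the full lists 2 hi-77-/- empty libraries had the peak, at 16.4 and 37.3. GATA2 libraries at 24.7 to 69.2 overlapped them (P = 0.0857, exact permutation test), as they did with tied ranks averaged (P = 0.0571, exact permutation test). The full lists also held the peak in hi-77+/+ empty replicates 1 and 4, at 20.3 and 32.5.

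Of the 12 Gata3 regions with a peak in GATA2 or hi-77-/- empty libraries, GATA2 opened 1 and closed 0, beside 2.15% and 2.82% of all regions, with 2 higher and 0 lower in score, beside 6.96% and 9.52%. For 9aa-Ins the counts over 11 regions were also 1 opened, 0 closed, 2 higher and 0 lower, beside 1.86%, 0.213%, 7.48% and 3.54%. Against GATA2, 9aa-Ins opened and closed 0 of 10 regions, beside 3.67% and 1.82%, with 1 higher and 0 lower, beside 13.0% and 6.86%. In the full lists 9aa-Ins differed from GATA2 by 1 opened region of 26, beside 4.88% of all regions, 75.9 kb downstream, which had peaks in all 4 9aa-Ins and in 3 hi-77-/- empty libraries and in no GATA2 or hi-77+/+ empty library.

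After the -77 deletion an intergenic region 76.9 kb downstream of Gata3 (chr2:9801342-9802020) ranked far higher. It scored 39.3 and 16.2 in hi-77+/+ empty replicates 1 and 2 and had no peak in replicates 3 and 4. hi-77-/- empty libraries scored 77.7, 82.4, 73.6 and 74.0. The groups were far apart (difference 63.1, P = 0.0286, adjusted P = 0.115, exact permutation test). GATA2 libraries scored 68.4, 64.5, 68.8 and 80.6 and 9aa-Ins libraries 86.1, 86.7, 83.4 and 77.3. All 12 hi-77-/- libraries were above all hi-77+/+ libraries, and neither protein separated from hi-77-/- empty (P = 0.171 for GATA2 and 0.0857 for 9aa-Ins, exact permutation tests). Of 9 Gata3 regions this was the single one that scored higher after the deletion, beside 13.2% of all regions, and 0 scored lower, beside 11.6%. No region was called opened, beside 4.29%, or closed, beside 2.51%. In the full lists the region had a peak in all 16 libraries, and hi-77+/+ scores of 14.9 to 66.2 stayed below hi-77-/- empty scores of 80.1 to 87.6.

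Among the other Gata3 regions, an intron of Taf3 87.3 kb upstream was open in all libraries. It scored 28.1, 46.3, 28.4 and 44.3 with GATA2 and 50.9, 51.1, 46.4 and 54.8 with 9aa-Ins, without overlap (14.03, P = 0.0286, adjusted P = 0.144, exact permutation test). With tied ranks averaged these groups overlapped (P = 0.171, exact permutation test). Within the gene, an intron 7.25 kb downstream had a peak in 2 hi-77-/- empty and 2 GATA2 libraries, and the region of a coding exon 1.03 kb downstream in 2 GATA2 libraries and 1 9aa-Ins library. Neither had a peak in hi-77+/+ empty libraries in lists of equal length. In the full lists the intron had a peak in 3 hi-77+/+ empty, 4 hi-77-/- empty, 2 GATA2 and 3 9aa-Ins libraries. The exon region had one in 3 hi-77-/- empty, 4 GATA2 and 4 9aa-Ins libraries there, and in no hi-77+/+ empty library. The remaining 4 regions were present in 1 to 3 libraries.

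Counted per library, the Gata1 window held more occupied regions with GATA2. The counts include the regions called opened above and are not independent of those calls. The counts were 9, 9, 9 and 10 with GATA2, 7, 7, 8 and 7 in hi-77-/- empty, 7, 6, 6 and 6 with 9aa-Ins and 8, 10, 9 and 7 in hi-77+/+ empty libraries. GATA2 libraries lay above hi-77-/- empty libraries (difference 2.0) and 9aa-Ins libraries lay below GATA2 libraries (difference -3.0), without overlap in either case (each P = 0.0286, adjusted P = 0.114 over 8 tests, exact permutation test). The remaining Gata1 differences, -1.25 for the deletion and -1.0 for 9aa-Ins against hi-77-/- empty, were within the spread (P = 0.257 and 0.114, exact permutation tests). Both separations depended on the list length. In the full lists GATA2 and 9aa-Ins libraries did not differ in mean count (0.0, P = 1.0) and GATA2 libraries overlapped hi-77-/- empty libraries (2.5, P = 0.171, exact permutation tests). In lists of 50% of the length the differences were -1.0 (P = 0.114) and 0.75 (P = 0.143, exact permutation tests). The Gata3 window held 4, 5, 3 and 3 occupied regions in hi-77+/+ empty, 6, 6, 4 and 6 in hi-77-/- empty, 9, 6, 8 and 6 with GATA2 and 6, 7, 8 and 6 with 9aa-Ins. No Gata3 comparison passed the test (exact permutation tests, P = 0.0857 after the deletion, 0.286 with either protein and 0.8286 between the proteins).

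**Figure D4:**
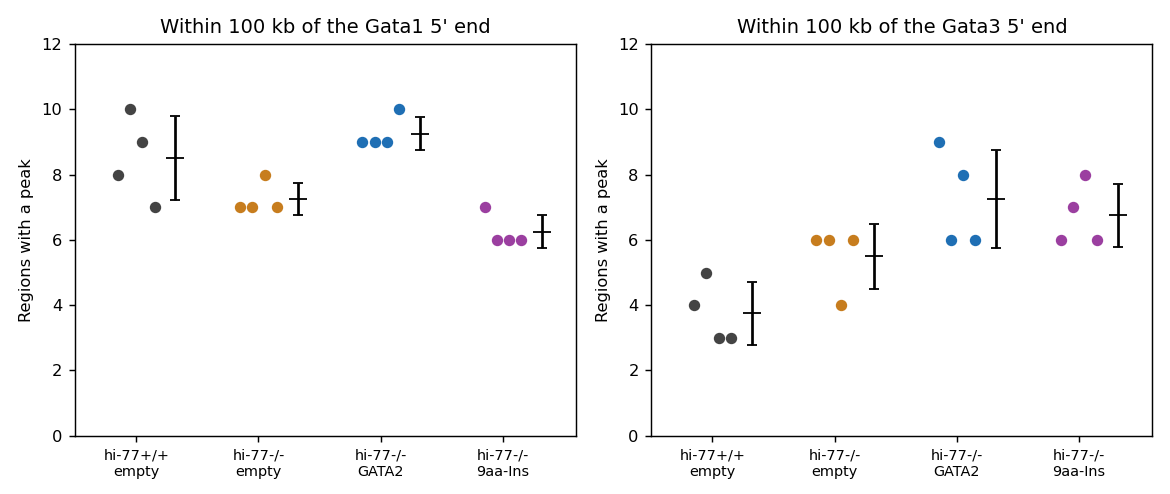
Number of regions with a peak within 100 kb of the 5′ end of Gata1 (left) and Gata3 (right), with 1 point per library and a black bar with whiskers for the mean and SD of 4 libraries. The vertical axis starts at 0. GATA2 libraries hold 9 or 10 Gata1 regions and 9aa-Ins libraries 6 or 7.

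Bases covered by peaks near the outermost 5′ end of Gata1 came from regions described above, so they are not separate evidence. Within 1 kb of that end no library had a peak. Within 10 kb the GATA2 libraries covered 236.5 ± 89.5 bp (SD, n = 4) and all others 0 bp (P = 0.0286 and adjusted P = 0.114 over 16 tests, against hi-77-/- empty and against 9aa-Ins, exact permutation test). For Gata3, coverage within 1 kb was 262.0 ± 81.3 bp in hi-77+/+ empty and 469.5 ± 102 bp in hi-77-/- empty libraries (P = 0.0286, adjusted P = 0.114, exact permutation test). Rank scores at this alternative start did not separate the same groups (P = 0.229, and 0.886 in the full lists, exact permutation tests). GATA2 and 9aa-Ins libraries covered 393.5 ± 36.5 and 422.75 ± 46.8 bp, within the spread of hi-77-/- empty libraries.

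Genes were also compared by covered bases within 10 kb of the outermost 5′ end. This window leaves out most of the Gata1 promoter region and nearly all of the Gata3 promoter region, and holds the alternative upstream start of Gata3. The genes most like Gata1 in these bases, over the 16 libraries and among 14675 genes, were Ms4a2 (Pearson r = 0.991), Glb1l2 (0.983), Cldn22 (0.971), Olfr1451 (0.957) and Gm1123 (0.950). All 5 had 0 bp covered outside the GATA2 libraries. Ms4a2 encodes the β chain of the high-affinity IgE receptor of mast cells and basophils. Genes among those most like Gata3, of 14673, were Tmem108 (0.837), Abcc2 (0.8294), Trim68 (0.806) and Olfr557 (0.806), which had less coverage in hi-77+/+ empty than in the hi-77-/- groups. The neighbors Trim68 and Olfr557 had identical values. These correlations describe 4 groups and were not tested.

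Regions within 100 kb of related genes were counted in the same way. The other GATA genes of the list (Gata2, Gata4, Gata5 and Gata6) had 3 opened and 3 closed of 44 regions with GATA2 (6.82% each, against 2.15% and 2.82% of all regions), and 3 opened and 0 closed of 42 with 9aa-Ins (7.14% opened against 1.86%). At Gata2 lay 2 of the 3 regions opened with GATA2 and all 3 opened with 9aa-Ins. Reads from the Gata2 cDNA of either retrovirus may map to exons there (their part was not tested). Genes for partners of GATA1, such as its cofactor gene Zfpm1 and Tal1, had 8 opened and 9 closed of 335 regions with GATA2, that is 2.39% and 2.69%, near the shares of all regions. With 9aa-Ins 1 was opened and 1 closed of 294 (0.340% each, against 1.86% and 0.213%). The deletion opened 9 and closed 8 of 352 (2.56% and 2.27%, against 4.29% and 2.51%). Genes of lymphoid cells that depend on GATA3 had 13 opened and 1 closed of 112 regions after the deletion. That is 11.6% opened and 0.893% closed against 4.29% and 2.51% of all regions. The opened regions lay at 6 of the 10 genes, with 3 each at Id2, Notch1 and Rag1. Bcl11b, Tox, Rora and Cd3e had none, and the study counts Rag1 among B-lineage genes. In that list GATA2 opened 5 and closed 9 of 123 regions (4.07% and 7.32%, against 2.15% and 2.82%), and 9aa-Ins opened 1 and closed 1 of 101 (0.990% each, against 1.86% and 0.213%). Among 13 neighboring genes GATA2 opened 4 of 38 regions (10.5% against 2.15%), 3 of which were the Gata1 and Gata3 regions above.

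Markers of cell types were read as a peak within 1 kb of the 5′ end. The 8 progenitor markers, Kit and Cd34 among them, had a peak in all 16 libraries, so the labelled cell type showed its markers, and the 4 hepatocyte markers had none. Single markers of other cell types also had peaks, so a peak at a single marker does not identify a cell type. Itga2b (megakaryocyte), Epor (erythroid) and Ebf1 (B cell) had a peak in 16 libraries, and Pecam1 (endothelial) and Col1a1 (fibroblast) in 15. Gp1bb, Pax5, Cdh5, Tek, Col1a2 and Pdgfra had none. Each GATA2 library had a peak at 3 of the 4 mast cell and basophil markers, and each library of the other groups at 1 or 2. Cpa3, encoding mast cell carboxypeptidase, had a peak in 4 of 4 GATA2 libraries and in 0 of the others, and Ms4a2 in 1 GATA2 library and 0 of the others. Hdc, which encodes histidine decarboxylase, had a peak in 4 GATA2, 4 hi-77+/+ empty, 1 hi-77-/- empty and 3 9aa-Ins libraries. Mcpt8, a basophil protease gene, had a peak in 3, 2, 4 and 4 libraries of these groups. The erythroid markers Hbb-bt and Alas2 had no peak in any library, and Klf1 had a peak in 0 GATA2, 3 hi-77+/+ empty, 1 hi-77-/- empty and 2 9aa-Ins libraries. Among T cell and innate lymphoid markers Cd3e, Cd3g and Bcl11b had none, and Tcf7 and Il7r had a peak in 15 libraries each. Of the mast cell and basophil markers Cpa3 thus had peaks in the same libraries as the Gata1 regions, whereas Hdc and Mcpt8 did not, and their part in the result was not tested.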

How the data were processed

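ATAC-Seq was measured in 16 libraries. Per the labels and the study's methods, the authors trimmed reads with Trim Galore (0.4.1), aligned them to mm10 with Bowtie2 (2.2.5), removed duplicates with Picard (2.26.0), kept unique tags, shifted reads by +4 and -5 bases for the transposase offset and ran MACS2 on every library separately. The methods name a constant background for the hi-77-/- groups alone, but the deposited fold enrichment, a ratio to background, was a whole multiple of 1 step (within 0.1 steps) for 100% of peaks in all 16 libraries. Each deposited row also holds an integer score, a -log10 P value and -log10 q value, and a summit offset. Only the -log10 P value, then fold, then position, set the ranks. Read totals are not in these lists, so depth is unknown and no counting interval is given.

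The 49000 most significant peaks per library on chromosomes 1 to 19 and X were merged at an overlap of 1 bp. Groups came from the labels. Scores, calls and exact permutation tests (Python 3.11.15, numpy 2.4.6, pandas 2.3.3, scipy 1.17.1 and matplotlib 3.10.9) are as given in the report, with Benjamini-Hochberg adjustment. The test code was checked on simulated data. Regions were named when they lay in Gata1 or Gata3, had either as nearest protein-coding gene, or were called. Others named were chosen after their values were seen. Alike genes were the 5 with the highest Pearson correlation among those over 20 kb away and covered in at least 4 libraries. The members, lists and tests were chosen with earlier results of these data known. Alternatives were shorter, full and q-filtered lists, narrow peaks, 50% cover, a replicate block and leaving out each library. Averaging tied ranks was added after seeing the data, since 2407 to 9094 peaks tied with the last one used and chromosome X sorts last among ties. One of the genes most like Gata3 is not reported here.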

Additional observations from a re-analysis of the deposited data

Results flagged for a closer look

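Of 48 sets of 4 libraries, 8 had a library standing apart from the other 3 (by Dixon's test of gap over range), where chance gives about 1 in 20 for values without ties. In the count of occupied Gata1 regions these were hi-77-/- empty replicate 3 (8), GATA2 replicate 4 (10) and 9aa-Ins replicate 1 (7), and in that of Gata3 regions hi-77-/- empty replicate 3 (4). In each of these 4 sets the other 3 libraries had equal counts. Where the other 3 values are equal, as here or where 3 libraries had no peak, gap over range is at its largest by construction. The rate of 1 in 20 does not apply to such sets. At the region 52.0 kb downstream of Gata1, hi-77-/- empty replicate 3 scored 24.6 and 9aa-Ins replicate 1 scored 33.1, above libraries at or near 0. At the Pim2 promoter 9aa-Ins replicate 3 scored 70.5, below the others. At the Taf3 intron region 93.5 kb upstream of Gata3, hi-77-/- empty replicate 2 scored 11.3 and the other 3 had no peak.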

How the results depend on the processing

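In lists cut to 50% of that length GATA2 opened 0 Gata1 and 0 Gata3 regions, 9aa-Ins opened 0 Gata3 regions and closed 0 Gata1 regions against GATA2, and the deletion opened 1 Gata3 region, 76.9 kb downstream. Most of these regions scored under 50. In the full lists the deletion opened 1 and closed 2 Gata1 regions, GATA2 opened 1, and 9aa-Ins against GATA2 closed 1 Gata1 region and opened 1 Gata3 region. With a -log10 q of at least 5 the deletion closed 1 Gata1 region and 9aa-Ins against GATA2 closed 1. With peaks under 1 kb, or with tied ranks averaged, the deletion closed 1, the Hdac6 exon. With 50% cover the deletion closed 1 Gata1 region. GATA2 opened 1 Gata1 region, the promoter, and 1 Gata3 region, the one 93.5 kb upstream in place of that 47.1 kb downstream. 9aa-Ins opened 3 Gata3 regions and, against GATA2, closed 1 Gata1 region, the promoter, and opened 1 Gata3 region.

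The difference in occupied regions turned for 9aa-Ins against hi-77-/- empty at Gata1 (2.5 in full lists, 0.5 with the q filter, 0.25 with 50% cover) and for 9aa-Ins against GATA2 at Gata3 (0.5 in short lists, 6.5 in full lists, 2.5 with the q filter, 1.75 with 50% cover). Neither had passed its test. Occupied Gata1 regions for 9aa-Ins against GATA2 went from -3.0 to 0.0 in full, -1.0 in short, -0.75 in q-filtered lists and -1.0 with 50% cover, and for GATA2 against hi-77-/- empty from 2.0 to 2.5, 0.75, 1.25 and 1.25, and in none of these did the groups separate. Scores turned at the Pim2 promoter for 9aa-Ins against GATA2 (2.73 in full lists, 4.48 with the q filter, 38.4 with 50% cover), and with 50% cover for GATA2 against hi-77-/- empty at the Pim2 exon (-14.6) and Pqbp1 (-16.7). Of the other single scores, 25 no longer reached P = 0.0286 in the exact permutation test, 2 of them at a difference of 0.0, for the region 47.1 kb downstream of Gata3 in short lists. The causes were not tested.

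Leaving out 1 library kept Gata1 calls at 2 opened by GATA2 and 2 closed by 9aa-Ins against GATA2. Regions opened at Gata3 ranged from 1 to 2 for GATA2 and from 1 to 2 for 9aa-Ins, the higher without hi-77-/- empty replicate 2, and occupied Gata3 regions for 9aa-Ins against GATA2 from -0.917 to 0.0833. Same-numbered libraries of different groups did not deviate together (0 of 24 pairs above 0.1, range -0.0436 to 0.0761, and 8 of 16 libraries closest to their own number). With a replicate block 4 pairs allow no P value under 0.05, and the block changed no difference in direction.

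Peak lists limit these results, since absence means rank or depth below a list's end, and no adjusted P value here was under 0.05.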

Other observations

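Single genes of the lists, chosen after their values were seen, also showed calls that went with GATA2. Zbtb16, which encodes the transcription factor PLZF of innate lymphoid cells, had 4 opened regions of 15 within 100 kb with GATA2 against hi-77-/- empty, and 3 closed of 14 with 9aa-Ins against GATA2. Against hi-77-/- empty, 9aa-Ins opened 1 of 8 Zbtb16 regions. The rest of its list went the other way, since GATA2 opened 5 and closed 9 of the 123 regions in that list. The closed ones lay at 6 other genes. Zfpm1, encoding the GATA1 cofactor FOG1, had 4 opened and 3 closed of 36 with GATA2, and 2 opened and 4 closed of 34 with 9aa-Ins against GATA2. Tal1, a partner of GATA factors at E box pairs, had 2 opened and 0 closed of 19 with GATA2. Over all regions GATA2 opened 2.15% and closed 2.82%, and 9aa-Ins against GATA2 opened 3.67% and closed 1.82%. These counts share hi-77-/- empty or GATA2 libraries and were not tested.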
